A study of Mus musculus with 6 samples.

Results

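The eicosanoid synthesis enzymes described here are 10 genes whose products release arachidonic acid from membranes and turn it into leukotrienes, prostaglandins and thromboxane, or clear the products. They were picked by gene symbol from a table of 48587 genes. The list was put together with results of the knockout comparison already known, in which Ltc4s was among the genes with the smallest p. Differences between the genotypes are therefore given below as a description of these samples and support no claim about the pathway. The samples were microglia, the resident macrophages of the brain, sorted from C57BL/6 mice at postnatal day 42. There were 3 samples from Lyl1 KO mice and 3 from wildtype mice, with no treatment named in the labels. Lyl1 encodes a helix-loop-helix DNA-binding protein active in blood progenitors. The labels name neither the targeted allele nor the sorting gate, and do not tell whether each sample was a different mouse. Part of the spread between samples may therefore be technical, although KO sample 2 differed in sex from KO samples 1 and 3, as given below.

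As background, cytosolic phospholipase A2, encoded by Pla2g4a, frees arachidonic acid from phospholipids. In the leukotriene branch the lipoxygenase Alox5, helped by the membrane protein Alox5ap (FLAP), makes leukotriene A4, which Lta4h converts to leukotriene B4 and Ltc4s joins to glutathione to give leukotriene C4. In the prostanoid branch the cyclooxygenases Ptgs1 and Ptgs2 make prostaglandin H2, from which Hpgds makes prostaglandin D2 and Tbxas1 makes thromboxane A2, while Hpgd inactivates prostaglandins by oxidation. Leukotriene B4 attracts leukocytes and leukotriene C4 is the parent of the cysteinyl leukotrienes. Haematopoietic prostaglandin D synthase, cyclooxygenase 1 and thromboxane synthase are known as products of microglia within the brain.

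Libraries held 12753945 to 27378614 reads in genes, of which 53684 to 120268 per sample fell in the 10 members. The targeted gene Lyl1 had 205, 237 and 410 reads in the KO samples and 683, 1399 and 839 in the wild-type samples. Genes detected numbered 13085, 14923 and 15531 in KO samples 1 to 3, against 13045, 12827 and 15652 in the wild-type samples. Xist, the RNA of the inactive X chromosome, was high in KO samples 1 and 3 and near 0 in KO sample 2 and in every wild-type sample. Levels are given as CPM, counts scaled by TMM to a common library total. Kdm5d, a gene of the Y chromosome, was at 0.088, 19.6 and 0.070 CPM in KO samples 1 to 3. In wild-type samples 1 to 3 it was at 7.14, 155 and 15.5 CPM. By both genes KO samples 1 and 3 were female and the other samples male, so sex is partly confounded with genotype. All 12 microglia markers were detected, and their summed level ranged from 67125 to 71528 CPM in KO and from 69673 to 74359 CPM in wild type.

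Marker lists of other blood cells, several of which are known to carry these enzymes, gave the following levels. All 10 mast cell and basophil markers had 3 reads or fewer in every sample. Neutrophil markers summed to 0.132 to 0.610 CPM in KO and 0.176 to 3.30 CPM in wild type, and monocyte markers to 0.356 to 6.91 CPM in KO and 0.191 to 1.499 CPM in wild type. Eosinophil markers summed to 0.0440 to 84.5 CPM in KO and 14.3 to 73.8 CPM in wild type. Most of that was Siglecf, at 0.0440, 49.4 and 72.3 CPM in KO samples 1 to 3 and at 14.1, 73.8 and 42.7 CPM in the wild-type samples. Ccr3 was at 12.1 CPM in KO sample 3 and 14.7 CPM in wild-type sample 3, with at most 1 read in each other sample. Prg2 and Epx, which encode granule proteins, had 3 reads or fewer in every sample. Platelet and megakaryocyte markers summed to 58.8 to 82.0 CPM in KO and 63.8 to 176 CPM in wild type, almost all of it in 3 of 7 genes, led by Gp9, and the platelet factor Ppbp was among the 4 with 3 reads or fewer. Border macrophage markers reached 10.3 CPM in KO and 95.8 CPM in wild type, the highest in wild-type sample 1. Almost all of the sum in that sample was Mrc1, at 95.4 CPM. Of the 8 markers 5 had 3 reads or fewer in every sample. Pf4 and Ms4a7 were at 3.48 and 5.39 CPM in wild-type sample 3 and had 3 reads or fewer in the other samples. Globins and other red cell markers were at 227, 65.2 and 0.244 CPM in KO samples 1 to 3 and at most 1.23 CPM in wild type. The part of these cells in the results below was not tested.

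Stretches upstream of the RefSeq start sites of Ltc4s, Alox5 and Pla2g4a (RefSeq, GRCm38.p6) are shown because these are the 3 members whose KO and wild-type levels do not overlap. All 3 lie on the minus strand and are written 5′ to 3′ on that strand. The Ltc4s stretch is chr11:50238617-50238782 and stops where the annotated exons of the gene begin. The Alox5 stretch is chr6:116461179-116461428. The Pla2g4a stretch is chr1:149961291-149961540, before the outer of its RefSeq start sites. Capitals mark the motif CANNTG, the E-box bound by basic helix-loop-helix factors as a class.
Ltc4s: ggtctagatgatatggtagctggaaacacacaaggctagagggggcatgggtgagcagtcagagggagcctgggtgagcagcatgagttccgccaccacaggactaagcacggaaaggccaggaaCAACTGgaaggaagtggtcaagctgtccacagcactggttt
Alox5: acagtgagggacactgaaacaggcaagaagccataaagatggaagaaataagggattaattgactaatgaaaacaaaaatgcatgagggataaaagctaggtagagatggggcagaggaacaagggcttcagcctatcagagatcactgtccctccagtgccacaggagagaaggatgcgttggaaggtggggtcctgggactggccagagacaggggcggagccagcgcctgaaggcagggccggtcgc
Pla2g4a: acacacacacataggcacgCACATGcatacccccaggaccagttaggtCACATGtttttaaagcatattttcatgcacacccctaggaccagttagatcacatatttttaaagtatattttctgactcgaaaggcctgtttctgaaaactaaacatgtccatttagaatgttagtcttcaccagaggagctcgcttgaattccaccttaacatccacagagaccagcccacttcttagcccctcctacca

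In the 250 bases before each start site the E-box, which reads as CANNTG on either strand, occurred 1 time for Ltc4s, 0 times for Alox5 and 2 times for Pla2g4a at this start. It was present in 66.2% of the 32851 RefSeq promoter windows of the same length. A match or its absence is a property of these letters and says nothing of binding. The motif GATA, searched on both strands, occurred 3 times for Ltc4s, of which 1 lies in the stretch shown, and 2 times for Alox5. For Pla2g4a it occurred 0 times before the outer start site and 2 times before the inner one, where the E-box occurred 1 time. GATA was in 53.6% of all windows.

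Of the 10 members 9 had reads, and these 9 also passed the filter on low counts. KO and wild-type levels did not overlap for 3 of the 9. Ltc4s and Pla2g4a were lower in every KO sample than in any wild-type sample, and Alox5 was higher in every KO sample. Among all 10394 genes tested, 11.2% did not overlap, with 5.97% higher and 5.19% lower in KO. No member passed an adjusted p of 0.05 in the edgeR quasi-likelihood test, and neither did any other gene, so the percentage called was 0%. At an unadjusted p under 0.05 only Ltc4s passed in that test, where 1.67% of all genes passed as lower and 1.16% as higher. That is 295 of 10394 genes, and without wild-type sample 3 it was 1158 of 11061. The median log2 fold change, KO over wild type, was -0.22 over the 9 members and -0.03 over all tested genes.

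**Figure D1:**
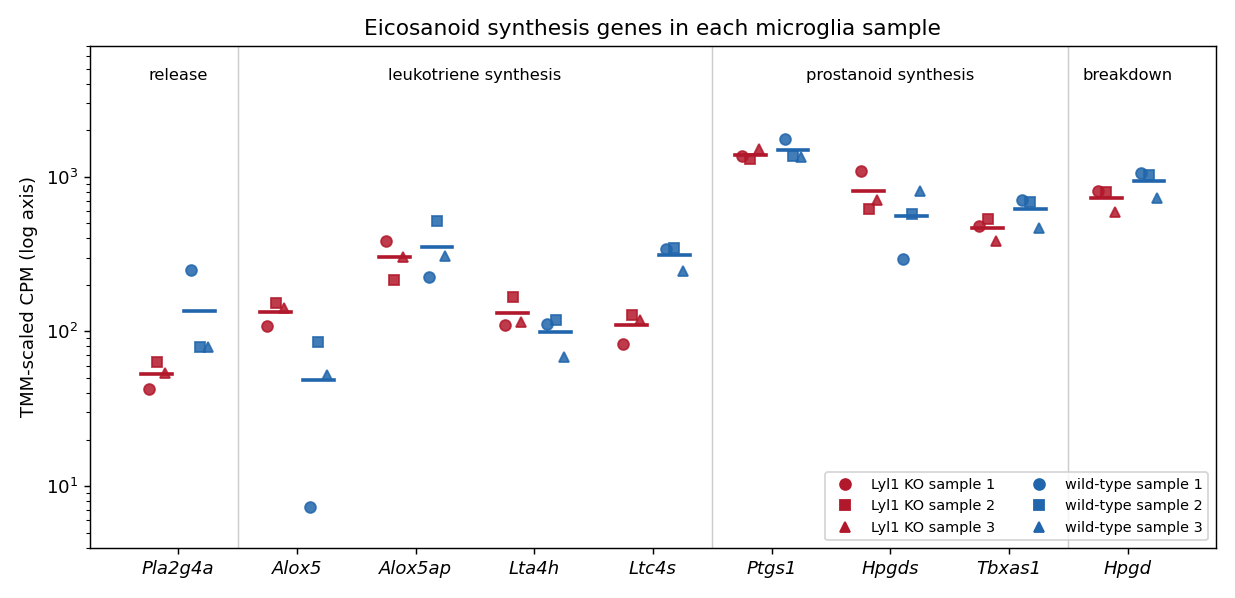
Level of each member with reads in each of the 6 samples, as TMM-scaled CPM on a log axis, with KO left of wild type; symbols are samples and bars are group means. Ltc4s and Pla2g4a lie lower and Alox5 lies higher in all KO samples, while the other 6 members overlap, and wild-type sample 1 stands at 7.32 CPM for Alox5 and 250 CPM for Pla2g4a.

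Ltc4s (ENSMUSG00000020377.15, GRCm38 chromosome 11, 50236461 to 50238616, minus strand), the synthase of leukotriene C4, had the largest difference of the 9 members in the edgeR fit with genotype alone. It had 1896, 2515 and 3402 reads in KO samples 1 to 3, against 3846, 8729 and 5180 in wild-type samples 1 to 3. On the CPM scale this was 83.5, 128 and 118 in KO and 339, 347 and 247 in wild type. The highest KO sample thus lay well under the lowest wild-type sample. The means were 110 ± 23.3 CPM in KO and 311 ± 55.5 CPM in wild type (SD, n = 3 each), 2.83-fold lower in KO. On the log2 scale the fitted fold change was -1.50 (standard error 0.33).

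The edgeR test gave Ltc4s an adjusted p = 0.9999, while DESeq2 on the same genes called it (adjusted p = 0.0136), as it did 0.523% of genes. DESeq2 run on every gene with a read did not call it (adjusted p = 0.169), and in the 3 richest samples, KO 2, KO 3 and wild type 3, which had the most genes detected, the log2 fold change was -0.998. That fit has 1 wild-type sample, which is assumed to vary like the KO samples, and its values here and below are departures from that sample alone. The gene shares 268 exon bases, 26.4% of its exon length, with the antisense gene model Gm26542, which had 300, 122 and 172 reads in KO and 141, 928 and 455 in wild type. Strand is not kept by the library kit, and reads from that stretch may belong to either gene or have been lost to both.

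Lta4h, the hydrolase that competes with Ltc4s for leukotriene A4, overlapped between the genotypes. It was at 111, 167 and 115 CPM in KO samples 1 to 3 and at 111, 118 and 68.3 CPM in wild-type samples 1 to 3, with a log2 fold change of 0.40 and a standard error of 0.45. Under upper-quartile and library-size scaling its groups separated, with KO higher. The share of all genes that separated under those scalings was not computed.

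The ratio of Ltc4s to Lta4h reads compares the enzymes that share leukotriene A4 as substrate and does not depend on how libraries are scaled. It was 0.754, 0.767 and 1.03 in KO samples 1 to 3, against 3.06, 2.93 and 3.62 in wild-type samples 1 to 3. The gene lengths are fixed, so the ratio is compared between samples only, and every KO sample lay below every wild-type sample. The mean ratio was 0.851 ± 0.157 in KO and 3.20 ± 0.365 in wild type (SD, n = 3 each). Ltc4s was also lower in KO relative to Ptgs1, with ratios of 0.0610, 0.0985 and 0.0787 in KO and 0.194, 0.256 and 0.184 in wild type. Relative to Alox5ap, a member of the same protein family, it was at 0.216, 0.596 and 0.391 in KO and 1.504, 0.671 and 0.801 in wild type, where KO sample 2 came close to wild-type sample 2. These ratios were chosen after the values were seen.

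**Figure D2:**
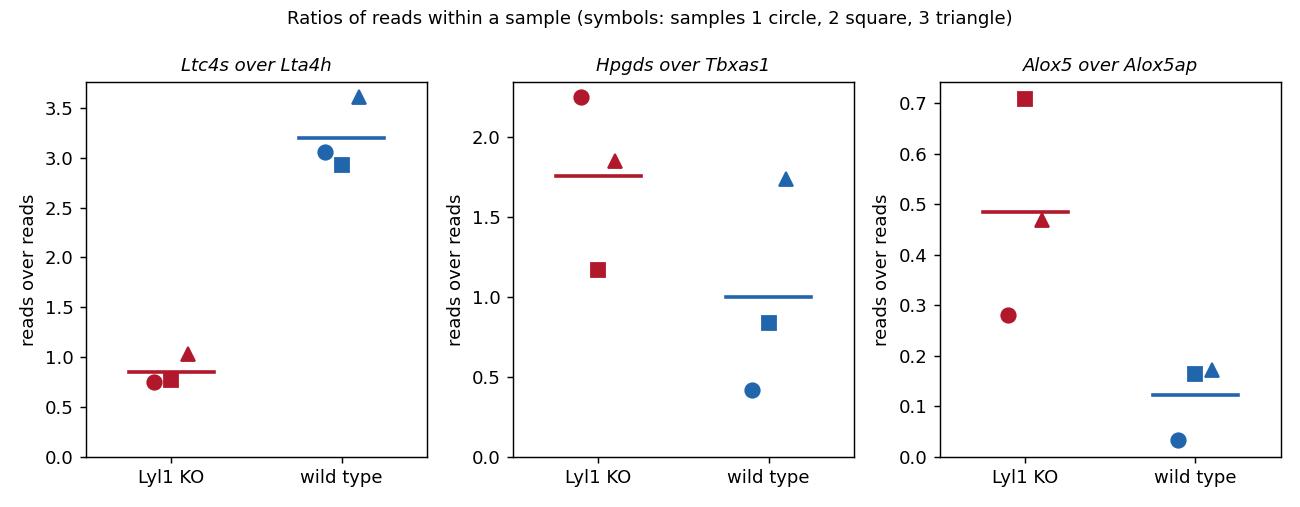
Ratio of reads within each sample for 3 pairs of members, with KO left of wild type; points are samples, bars are means, and the vertical axes start at 0. Ltc4s over Lta4h lies between 0.754 and 1.03 in KO and between 2.93 and 3.62 in wild type, Hpgds over Tbxas1 overlaps, and Alox5 over Alox5ap does not.

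Alox5 (ENSMUSG00000025701.12, chromosome 6, 116410077 to 116461178, minus strand), the lipoxygenase that starts the leukotriene branch, lay the other way from Ltc4s. It was at 108, 152 and 142 CPM in KO samples 1 to 3 and at 7.32, 84.9 and 52.6 CPM in wild-type samples 1 to 3. Wild-type sample 1 had only 83 reads, so the wild-type values spanned 11.6-fold while the KO values spanned 1.40-fold. The means were 134 ± 22.8 CPM in KO and 48.3 ± 39.0 CPM in wild type (SD, n = 3 each), and the fitted log2 fold change was 1.47 (standard error 0.83). Without wild-type sample 1 it was 0.97.

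Alox5ap, which presents arachidonic acid to Alox5, overlapped between the genotypes. It was at 386, 214 and 302 CPM in KO samples 1 to 3 and at 225, 517 and 308 CPM in wild-type samples 1 to 3. The log2 fold change of -0.22 (standard error 0.38) turned to 0.20 without wild-type sample 2. The ratio of Alox5 to Alox5ap reads was 0.280, 0.707 and 0.468 in KO and 0.0324, 0.164 and 0.171 in wild type, higher in each KO sample. Alox5ap shares 189 exon bases with the antisense model Gm19719, which had at most 29 reads in any sample.

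Pla2g4a (ENSMUSG00000056220.14, chromosome 1, 149829618 to 149961290, minus strand), the phospholipase that supplies both branches, was low in KO. It was at 42.5, 63.3 and 54.0 CPM in KO samples 1 to 3 and at 250, 79.3 and 79.8 CPM in wild-type samples 1 to 3. Wild-type sample 1 was far above the other two, which lay closer to the highest KO sample than to it. The means were 53.3 ± 10.4 CPM in KO and 136 ± 98.4 CPM in wild type (SD, n = 3 each). The fitted log2 fold change was -1.36 (standard error 0.63), and it was -0.57 without wild-type sample 1 and -0.44 in the 3 richest samples.

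In the prostanoid branch no member separated the genotypes. Ptgs1 (chromosome 2, 36230426 to 36252272, plus strand), the constitutive cyclooxygenase, drew the most reads of the 10 genes in every sample and was the steadiest of them. It was at 1368, 1298 and 1503 CPM in KO and 1744, 1353 and 1344 CPM in wild type, and only 0.625% of tested genes had a higher mean. Its coefficient of variation was 7.49% in KO and 15.5% in wild type, the lowest of the 9 members in each genotype. The log2 fold change of -0.09 (standard error 0.17) turned positive under upper-quartile scaling, under library-size scaling, without wild-type sample 1 and in the 3 richest samples. Ptgs2, the inducible cyclooxygenase, was listed at 0 reads in all 6 samples, where a count of 0 allows up to 3 reads per sample, or 0.104 to 0.264 CPM. The mitochondrial gene mt-Co2, which every cell uses, is also listed at 0 in all samples, so a listed 0 in this table does not by itself show absence.

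Hpgds (chromosome 6, 65117293 to 65144908, minus strand), the prostaglandin D synthase of blood and microglial cells, varied widely. It was at 1083, 621 and 708 CPM in KO samples 1 to 3 and at 296, 572 and 806 CPM in wild-type samples 1 to 3. Wild-type sample 1 was lowest and KO sample 1 highest, and the groups overlapped. The fitted log2 fold change was 0.53 (standard error 0.39), and it was -0.27 in the 3 richest samples.

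Tbxas1, thromboxane synthase, was at 482, 532 and 384 CPM in KO samples 1 to 3 and at 706, 686 and 465 CPM in wild-type samples 1 to 3, a log2 fold change of -0.41 with a standard error of 0.25. Hpgd, the prostaglandin dehydrogenase, was at 804, 798 and 588 CPM in KO samples 1 to 3 and at 1053, 1020 and 723 CPM in wild-type samples 1 to 3, a log2 fold change of -0.35 with a standard error of 0.23. For both genes sample 3 was the lowest of its genotype, and the groups overlapped through wild-type sample 3. In the 3 richest samples the log2 fold changes were -0.01 for Tbxas1 and -0.05 for Hpgd. Hpgds and Tbxas1 draw on the same substrate, and the ratio of their reads was 2.25, 1.17 and 1.85 in KO and 0.419, 0.834 and 1.74 in wild type, which overlapped.

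**Figure D3:**
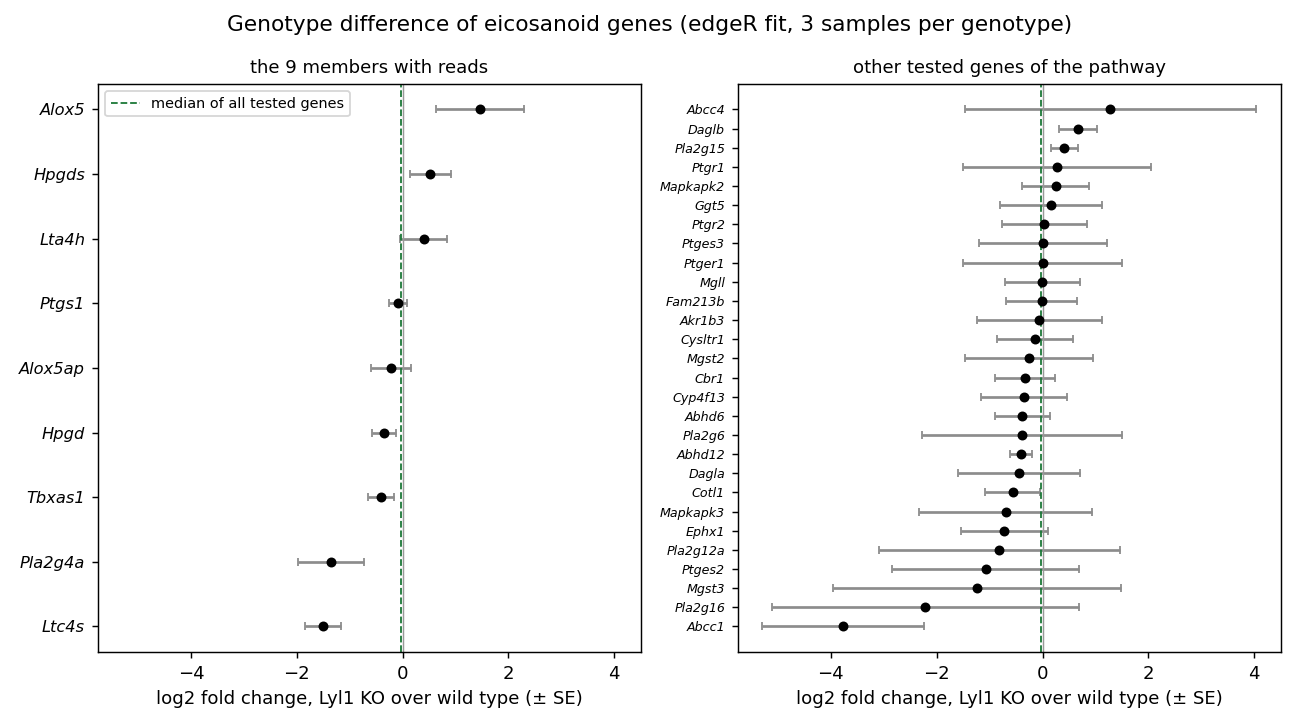
Log2 fold change of KO over wild type with its standard error, for the 9 members with reads (left) and for the 28 other tested genes of the pathway (right); the dashed line is the median of all 10394 tested genes at -0.03. Ltc4s at -1.50 and Alox5 at 1.47 are the outermost members, and Abcc1 at -3.77 is the outermost of the other genes.

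Levels can be set against each other between genes only per length, and CPM was divided by kilobases of annotated exon for that purpose. On this scale Hpgd had the highest level, at 434 ± 73.1 CPM per kb in KO and 554 ± 108 in wild type, followed by Ptgs1 at 358 ± 26.8 in KO and 381 ± 58.9 in wild type (SD, n = 3 each). Ltc4s was at 108 ± 23.0 CPM per kb in KO, rank 5 of the members by mean, and at 307 ± 54.7 in wild type, rank 3. The ranges over the 6 samples overlapped between each gene and the next in the order of means, Hpgd, Ptgs1, Alox5ap, Ltc4s, Hpgds and Tbxas1. Tbxas1 and the members after it were separated, since its lowest value of 42.2 CPM per kb lay above the highest of those after it, 39.1 for Pla2g4a in wild-type sample 1. Alox5, Lta4h and Pla2g4a overlapped at the low end, so the order among them does not hold beyond their spread. With the longest transcript as the length, 7 of the 10 members changed place, and Ptgs1 stood above Hpgd.

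Summed over Alox5, Alox5ap, Lta4h and Ltc4s, the leukotriene branch was at 399, 341 and 383 CPM per kb in KO samples 1 to 3 and at 513, 746 and 485 in wild-type samples 1 to 3. Without Ltc4s the sums overlapped, at 316, 215 and 266 CPM per kb in KO and 179, 404 and 241 in wild type. The prostanoid branch, the sum of Ptgs1, Hpgds and Tbxas1, was at 574, 489 and 539 CPM per kb in KO and 573, 513 and 523 in wild type, which overlapped. Ltc4s took 1.87%, 3.22% and 3.02% of all member reads in KO samples 1 to 3, against 7.16%, 7.26% and 6.03% in wild-type samples 1 to 3. The 95% Wilson intervals were 1.79% to 1.95%, 3.10% to 3.34% and 2.93% to 3.13% in KO, and 6.95% to 7.39%, 7.11% to 7.41% and 5.88% to 6.20% in wild type. They cover counting error only, since reads copied by PCR are not separate molecules. In bulk samples a smaller share of cells with a transcript and less transcript per cell cannot be told apart.

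**Figure D4:**
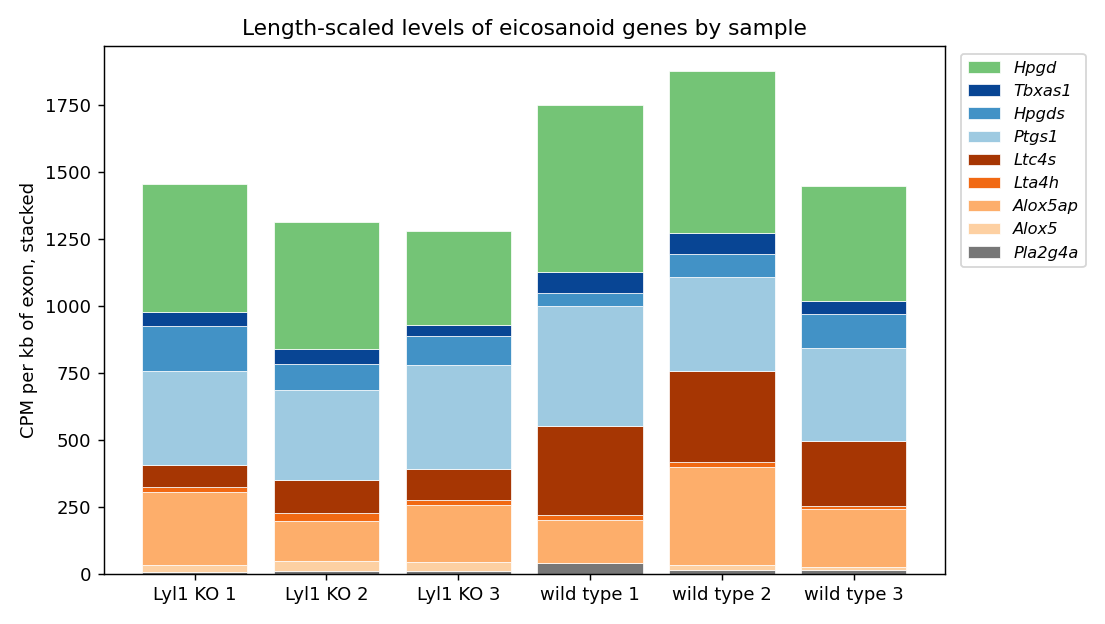
CPM per kilobase of annotated exon of the 9 members with reads, stacked for each sample, with KO samples left of wild-type samples and the vertical axis starting at 0. The Ltc4s segment is 82.3 to 126 CPM per kb in KO and 244 to 342 in wild type, while Hpgd and Ptgs1 make up the tallest pair of segments in KO samples and in wild-type samples 1 and 3.

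The wider pathway was described with 81 further genes in 10 lists. Of these, 55 had at least 1 read and 28 were tested, of which 19 had a fitted fold change below 0 and 9 above 0. None was called in the edgeR test, where 0% of all genes were called, and 51.3% of all tested genes had a fold change below 0. Their median log2 fold change was -0.30. Among the 28 tested genes the groups did not overlap for 1, Abcc1, an export pump for leukotriene C4, where 11.2% of all tested genes did not overlap. Ptger3, which did not pass the filter on low counts, had 0 reads in each KO sample and 2, 1 and 136 in wild-type samples 1 to 3. The counts of 2 and 1 lie within the 3 reads that a count of 0 allows. Cyp4f16 and Dpep2, also not tested, leaned the other way but overlapped between the genotypes. Cyp4f16 had 0, 374 and 999 reads in KO, against at most 3 in any wild-type library. Dpep2 had 0, 60 and 111 reads in KO, against at most 1 in any wild-type library. Abcc1 was at 1.10, 10.7 and 6.71 CPM in KO samples 1 to 3 and at 11.7, 223 and 17.4 CPM in wild-type samples 1 to 3, with a log2 fold change of -3.77 (standard error 1.53). Wild-type sample 2 stood far above the rest, and the lowest wild-type sample was close to the highest KO sample.

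The genes around arachidonate release included the most abundant ones. Of 22 phospholipases and lipases 9 were tested, 7 with a fold change below 0 and 2 above. Abhd12, a lysophospholipid and monoacylglycerol lipase, averaged 1957 ± 70.0 CPM in KO and 2596 ± 714 CPM in wild type, and Pla2g15, the lysosomal phospholipase A2, averaged 943 ± 192 CPM in KO and 709 ± 166 CPM in wild type (SD, n = 3 each). Both overlapped between the genotypes. Of 4 regulators of Alox5 and Pla2g4a 3 were tested, 2 below and 1 above 0. Cotl1, a binding partner of Alox5, averaged 347 ± 209 CPM in KO and 514 ± 119 CPM in wild type, and the kinase Mapkapk2 averaged 151 ± 76.1 CPM in KO and 127 ± 79.4 CPM in wild type.

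Of 6 other lipoxygenases none was tested, and Alox12 and Alox15 had 0 reads in every sample. Mgst2, a relative of Ltc4s that can also make leukotriene C4, had 4, 5 and 47 reads in KO samples 1 to 3, against 13, 23 and 9 in wild-type samples 1 to 3. Mgst3, of the same family, had 0, 86 and 397 reads in KO and 424, 0 and 119 in wild type, and both relatives had fitted fold changes below 0. Of 9 other prostanoid synthases and reductases 5 were tested, 4 below and 1 above 0, and the most abundant were Cbr1, a carbonyl reductase, at 83.9 ± 30.6 CPM in KO and 106 ± 46.3 CPM in wild type, and Fam213b, a prostaglandin F synthase, at 55.6 ± 16.4 CPM in KO and 56.3 ± 8.04 CPM in wild type. Ptgds, the prostaglandin D synthase of the meninges and glia, and the prostacyclin synthase Ptgis had 0 reads in every sample. The only tested gene among 6 epoxygenases and epoxide hydrolases was Ephx1, at 53.3 ± 31.2 CPM in KO and 87.9 ± 59.6 CPM in wild type.

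Of 12 breakdown genes 4 were tested, 1 below and 3 above 0. Ggt5, which trims leukotriene C4 to leukotriene D4, was at 123, 42.3 and 30.8 CPM in KO samples 1 to 3 and at 13.8, 118 and 42.9 CPM in wild-type samples 1 to 3, and Cyp4f13 averaged 93.2 ± 65.2 CPM in KO and 119 ± 70.4 CPM in wild type. Of 3 transporters 2 were tested, Abcc1 and Abcc4, and Abcc4 averaged 4.72 ± 8.17 CPM in KO and 1.94 ± 2.61 CPM in wild type. Among 7 leukotriene and related receptors only Cysltr1, a cysteinyl leukotriene receptor, was tested, at 42.7, 77.2 and 83.3 CPM in KO samples 1 to 3 and at 94.8, 25.3 and 105 CPM in wild-type samples 1 to 3, which overlapped. Cysltr2 had 0 reads in every sample. Among 9 prostanoid receptors only Ptger1, a prostaglandin E2 receptor, was tested, at 5.71 ± 3.29 CPM in KO and 5.70 ± 2.06 CPM in wild type (SD, n = 3 each).

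Of genes with a proper symbol, the 5 whose profile over the 6 samples lay nearest to that of Ltc4s were Fis1, Atp5f1, Fcgr2b, Tprgl and Sec11c. Likeness was measured as the root mean square distance between log2(CPM + 1) values, each centred on its mean over the 6 samples. It was computed for 3593 other tested genes with a mean of 50 CPM or more. Gene models without a proper symbol were then left out, so such a model may lie nearer. The distances were 0.199 for Fis1, 0.243 for Atp5f1, 0.244 for Fcgr2b, 0.253 for Tprgl and 0.258 for Sec11c. Since Ltc4s separates the genotypes, genes chosen for likeness to it do so by choice. Among the members Pla2g4a was nearest, at 0.532, and Alox5 farthest, at 2.05.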

How the data were processed

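Microglia RNA from 3 Lyl1 KO and 3 wild-type samples was sequenced from SMARTer cDNA and Nextera XT libraries, per the labels' protocols. The authors deposited raw read counts per gene symbol, not normalized. Per the submitters' processing notes the build was GRCm38 and the tools included STAR 2.5.2b, featureCounts 1.5.1, Subread, CASAVA 1.8.2 and limma 3.28.21, with no role stated. Annotation and strand setting: not given in the sources used here. Spike-in entries, 92 in number with 21 to 66 reads per sample, were left out. Of 48587 genes 22005 had a read, and filterByExpr (minimum count 10, minimum total 15) kept 10394. Counts were scaled by TMM, so that CPM refers to the reads of tested genes, and fitted with genotype alone in edgeR 4.0.16 (R 4.3.3; quasi-likelihood F test, 2-sided, Benjamini-Hochberg, threshold 0.05). DESeq2 1.42.0 and limma-voom (limma 3.58.1) were alternatives, with other scalings, filters and samples. Standard errors are the size of the log2 fold change over the square root of F. Positions and exon lengths are from GENCODE M21 (GRCm38), and promoters from RefSeq.

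The members, the pathway lists and the marker lists were chosen with earlier results of these data known. Genes named are the members, Lyl1, the 2 most abundant tested genes of each pathway list, those with an unadjusted p under 0.05 or no overlap, and the most abundant marker of lists described. The 5 profiles nearest to Ltc4s among genes with a proper symbol are also named. Xist, Kdm5d, mt-Co2, Ppbp, Prg2, Epx, Ccr3, Pf4, Ms4a7, Ptger3, Cyp4f16, Dpep2, the antisense models and pathway genes with 0 reads lie outside that rule and were named after their values were seen. Of the marker lists not described in the results, endothelial, astrocyte and oligodendrocyte markers summed to at most 258 CPM in KO and 410 CPM in wild type, neuron markers to 6.96 in KO and 0.264 in wild type, and lymphocyte markers to 0.152 in KO and 1.38 in wild type. The highest sums were of the astrocyte list, almost all of it Slc1a3, at 258 CPM in KO sample 1 and 408 CPM in wild-type sample 1. Of the 6 astrocyte markers 2 had 0 reads in every sample.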

Additional observations from a re-analysis of the deposited data

How the results depend on the processing

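The common biological coefficient of variation was 1.27. In the edgeR fit no gene was called higher or lower, and that count was also 0 in the remaining settings other than the following. Without the filter 3 genes were called higher and 5 lower, with DESeq2 on the genes edgeR tested 34 and 18, and with DESeq2 on all genes with a read 97 and 40. Of the members only Ltc4s was called, 1 gene, and only by DESeq2 on the genes edgeR tested. Leaving out 1 sample at a time gave 0 calls higher, 0 lower and 0 members in every case. The 3 members without overlap became 5 with upper-quartile scaling, Lta4h and Hpgd joining, which moves the median log2 fold change of all genes to 0.09 from -0.03. With library-size scaling they became 4, Lta4h joining. The share of all tested genes without overlap was computed for TMM scaling only, so these counts have no background beside them. The share of member reads held by Ltc4s in KO was 2.70% and became 8.12% per kb of exon, by construction, and with the longest transcript 7 members changed place in the order of levels. Over 17 alternatives the log2 fold change of Ltc4s ran from -1.63 to -0.998, that of Alox5 from 0.97 to 2.17 and that of Pla2g4a from -1.62 to -0.44; the cause of the spread was not tested. Adding the log2 Xist level as a covariate, chosen after the data were seen like the fit of the 3 samples with the most genes, gave -1.32 for Ltc4s. With the replicate number as a block 0 genes were called, 171 had an unadjusted p under 0.05 against 295 without it (272 to 1158 with 1 sample left out, the highest without wild-type sample 3), and Ltc4s was at -1.51. Deviations of same-numbered samples correlated at -0.001, -0.013 and -0.043 across genes, and no sample correlated best with its own number. Different-numbered samples correlated at -0.008 to 0.029. With all values near 0 and 3 samples per genotype, this gives no sign of pairing by number but cannot settle whether the samples were paired.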
